A study of Mus musculus with 4 samples.

Results

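Respiratory chain genes were followed in single-cell RNA-seq libraries of LSK cells from mouse bone marrow. The set holds the genes whose symbols name subunits of complexes I to IV of the chain, together with the 13 protein-coding genes of the mitochondrial genome, 2 of which (mt-Atp6 and mt-Atp8) belong to complex V. A gene entered the set when its unique molecular identifiers (UMIs, each standing for 1 captured RNA molecule) summed to at least 50 over the 4 libraries. Of 55357 genes in the files, 30478 of them with a UMI, 79 were members: 66 nuclear (37 of complex I, 4 of complex II, 8 of complex III and 17 of complex IV by symbol) and 13 mitochondrially encoded (7 of complex I, 1 of complex III, 3 of complex IV and 2 of complex V). Members were thus chosen by their summed UMIs, and that they are abundant is not a result. The lowest members were Cox6c2 with 209 UMIs, Cox7a1 with 516, Cox7c-ps1 with 1157, Cox5b-ps with 1161 and Cox4i2 with 1433. Just outside lay Uqcrh-ps1 with 31, Uqcrh-ps2 with 15, Cox7b2 with 2, and Cox8b and Cox8c with 1 each.

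LSK cells lack lineage markers and carry Sca-1 and Kit on their surface; the fraction holds haematopoietic stem cells and early progenitors. All mice carried the wild-type genotype. They had been given Yoda1, a small-molecule opener of the mechanosensitive channel Piezo1, or vehicle; the Yoda1 course was intraperitoneal and lasted 2 weeks. Each group had 2 libraries, named here control 1, control 2, Yoda1 1 and Yoda1 2, and values listed per library follow that order. The labels used here give no strain or age and do not say that libraries came from separate mice, so every p-value below measures the spread of these libraries alone, and that spread may be technical.

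The respiratory chain lies in the inner mitochondrial membrane. Complexes I (NADH dehydrogenase) and II (succinate dehydrogenase) pass electrons to ubiquinone, complex III (the cytochrome bc1 complex) passes them on to cytochrome c, and complex IV (cytochrome c oxidase) hands them to oxygen. The proton gradient built on the way drives ATP synthase, complex V. Complex II is wholly nuclear in origin, whereas the other complexes are assembled from nuclear and mitochondrial gene products, so that RNA from both genomes has to be supplied. In bone marrow, quiescent stem cells are known for relying on glycolysis, and commitment to a lineage for a greater use of respiration.

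After filtering, the libraries held 7620, 7822, 9122 and 9756 cells, with a median of 11220, 9411, 10184 and 7311 UMIs per cell. Pairs of libraries shared 14 to 30 cell barcodes. Nuclear members made up 2.06%, 1.96%, 2.17% and 1.76% of all UMIs and mitochondrially encoded members 1.13%, 1.06%, 0.913% and 1.18%. Yoda1 2 stood apart in its make-up: 46.2% of its cells fell in the stem gate described next, against 11.4% to 17.7% in the other libraries. Results that compare treatments are therefore also given within gates and without single libraries.

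Cells were sorted into 6 gates by marker genes, none of which is a member. A cell entered the stem gate with at least 2 UMIs over Hlf, Mecom and Procr, the lymphoid gate with at least 3 UMIs over 7 lymphoid genes, and the megakaryocyte-erythroid (MkE), mast and monocyte gates with at least 3 genes of their lists detected. The myeloid gate required Mpo, Elane, Prtn3 and Ctsg to reach 1% of the UMIs of a cell. Cells passing several gates (14.9% to 28.2% of a library) or none (15.8% to 21.0%) were left out. Apart from the myeloid gate, the gates used raw UMIs or genes detected, so entry depended on depth. Cells passing several gates were deep, at a median of 13685 to 17509 UMIs. Exactly at the threshold stood 21.1% to 32.5% of stem and 35.9% to 72.7% of monocyte cells per library. Further markers, not used for gating, were highest in their own gate for 6 of 6 MkE, 6 of 6 mast, 6 of 6 monocyte, 5 of 6 lymphoid, 4 of 6 stem and 4 of 6 myeloid genes. The other 2 stem markers were highest in the MkE gate and the other 2 myeloid markers in the mast gate, so the names stand for the gating genes rather than for pure cell types. Gates held 870 to 4509 stem, 350 to 1876 MkE, 86 to 620 myeloid, 480 to 1430 lymphoid, 74 to 172 mast and 66 to 501 monocyte cells per library.

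Most nuclear respiratory chain genes were higher in the MkE, myeloid and monocyte gates than in the stem gate, and smaller majorities in the lymphoid and mast gates. Of the 13 mitochondrially encoded genes, 8 were higher in the myeloid gate (6 to 8 when 1 library was left out), where 31.5% of all genes were. Among cells with no UMI of 10 cycling genes only 1 was higher there, against 11.4% of all genes. In the MkE gate 7 were lower, where 38.4% of all genes were, but 4 to 5 when any 1 library was left out. Levels are given as CPM, a count divided by the total UMIs and put on the usual scale, with TMM scaling over the gate sums; a CPM is a share of the RNA counted and says nothing of the RNA content of a cell. The 65 nuclear members that passed the filter on low counts (Cox6c2 did not) summed to 14585, 13891, 15679 and 14203 CPM in the stem gate. In the MkE gate the sum was 22538, 20214, 23108 and 21529.6, and in the myeloid gate 25378, 26652, 29322 and 27672. Neither range overlapped that of the stem gate, and the myeloid range lay above that of MkE. Lymphoid, mast and monocyte sums averaged 16793 ± 1219, 18085 ± 1141 and 21852 ± 2177 CPM (mean ± SD, n = 4 libraries).

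The 13 mitochondrially encoded members summed to 10557, 9469.5, 9502 and 10688 CPM in the stem gate and 9977, 10209, 8946 and 10819 in the MkE gate, and these ranges overlapped. The myeloid sum was 15149, 12811, 10509 and 13225 CPM, above the stem value of the same library in each of the 4 libraries. Its lowest value, in Yoda1 1, lay below the highest stem value. The means were 10006 ± 627 CPM in the lymphoid, 9404 ± 873 in the mast and 11085 ± 1208 in the monocyte gate.

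**Figure D1:**
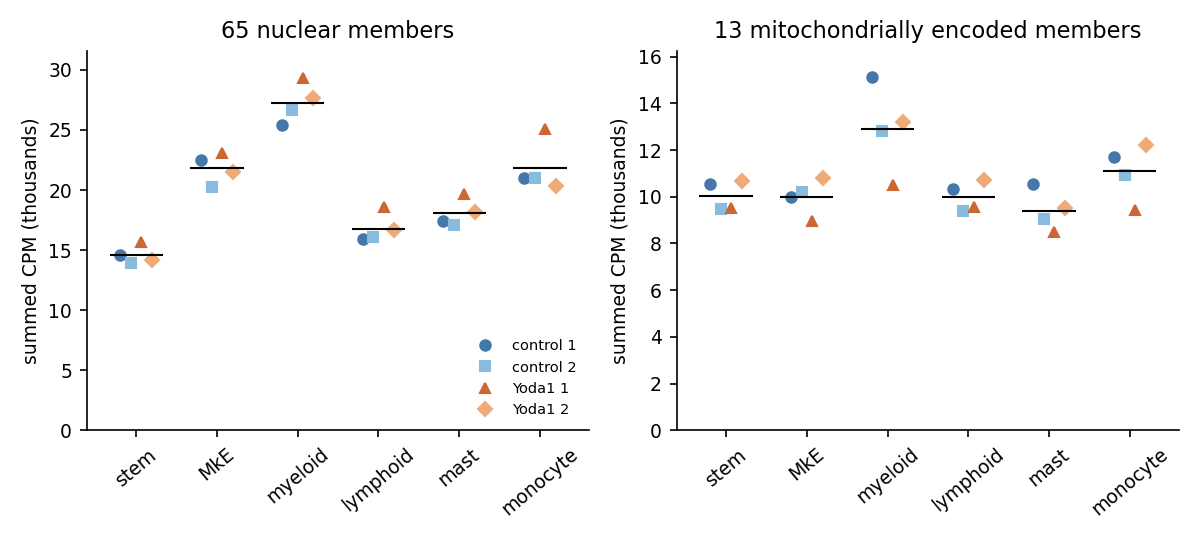
Summed levels (CPM in units of 1000, y axis) of the 65 tested nuclear members (left) and the 13 mitochondrially encoded members (right) in 6 marker gates (x axis); each point is 1 library and each bar the mean of 4. Nuclear sums rise from about 14589.6 CPM in the stem gate to 27256 in the myeloid gate, while mitochondrial sums stay near the stem level outside the myeloid and monocyte gates.

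Each gate was compared with the stem gate gene by gene over 13979 genes, with library as a block (edgeR's quasi-likelihood test, Benjamini-Hochberg adjusted p at 0.05). All 5 comparisons share the stem sums. In the MkE gate 61 of 65 nuclear members were higher and 3 lower, against a background of 32% of all tested genes higher and 38.4% lower. The nuclear median log2 fold change was 0.61, against -0.08 over all genes. In the myeloid gate 61 were higher and 2 lower (background 31.5% and 37.6%), with a median of 0.88 against -0.11. In the monocyte gate the counts were 61 higher and 2 lower (28.4% and 31.4%), with a median of 0.62 against -0.06. The lymphoid and mast gates moved less: 41 higher and 2 lower in the lymphoid gate (18.6% and 18.5%, median 0.21 against -0.02), and 38 higher and 1 lower in the mast gate (15.1% and 14.9%, median 0.28 against -0.05). In the MkE gate 62 of the 65 were above the stem value of the same library in all 4 libraries, and 62 were so in the myeloid gate.

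Of the 13 mitochondrially encoded members, 1 was higher and 7 lower in the MkE gate (background 32% and 38.4%, median -0.18). In the myeloid gate 8 were higher and 1 lower (31.5% and 37.6%, median 0.29). In the monocyte gate 2 were higher and 1 lower (28.4% and 31.4%, median 0.11), and in the lymphoid gate 0 and 1 (18.6% and 18.5%, median -0.01). The monocyte and lymphoid counts are thus below the shares of all genes. In the mast gate 0 were called by edgeR's quasi-likelihood test or by DESeq2, and the median was -0.09; 4 were lower at an unadjusted p under 0.05. Single libraries bore on these small counts: the 7 lower in the MkE gate were 4 to 5 when any 1 library was left out. Then 32.3% to 35.4% of all genes were lower there, so the reduced counts are near the background. The 1 lower in the myeloid gate was 0 without Yoda1 1. In the monocyte gate 1 was higher without either control and 5 without either Yoda1 library, where 25.9% to 32.1% of all genes were. The lymphoid call was lost without control 2 or Yoda1 1, and 2 were lower in the mast gate without control 1 (11.4% of all genes). The myeloid gate was compared directly with the MkE gate as a contrast added after the data were seen. There 10 mitochondrially encoded members were higher and 0 lower by edgeR (also 0 lower at an unadjusted p under 0.05; DESeq2 was not run for it), and 42 nuclear members were higher and 3 lower (background 26.7% and 26.8%), with medians of 0.37 and 0.24 against -0.03 over all genes.

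**Figure D2:**
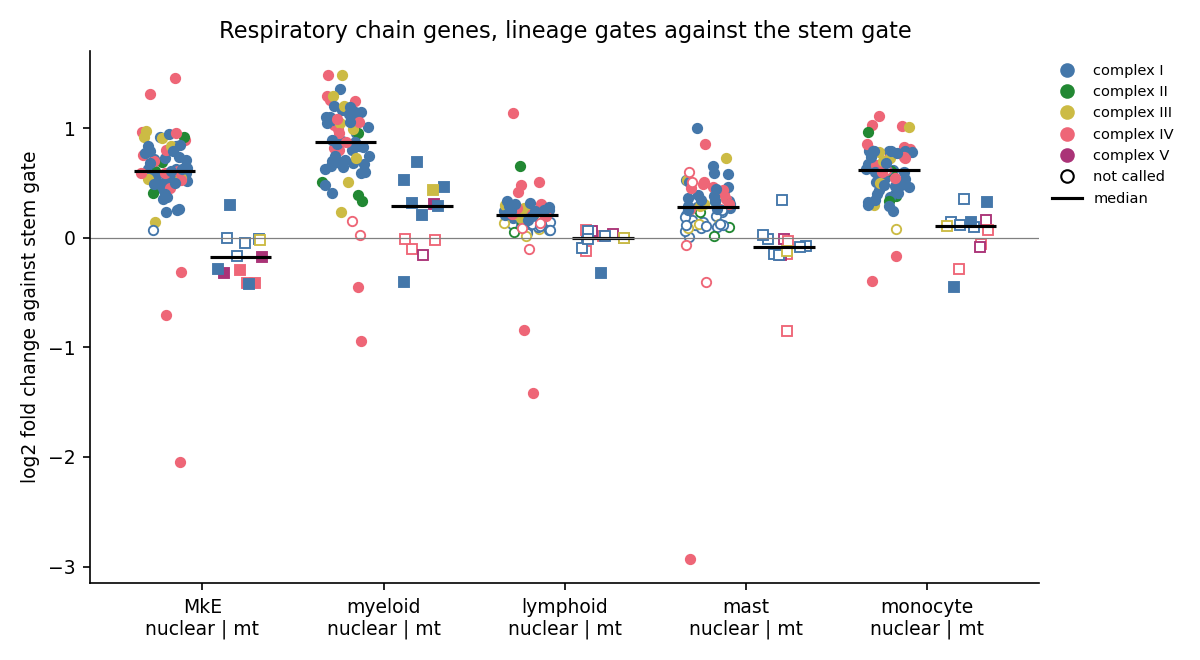
Log2 fold change against the stem gate (y axis) of each nuclear (circles) and mitochondrially encoded (squares) member in 5 lineage gates (x axis), coloured by complex; filled points passed the adjusted p of 0.05, open points did not, and bars are medians. The nuclear medians run from 0.21 to 0.88 and the mitochondrial ones from -0.18 to 0.29; the low outlying points in the nuclear columns are Cox4i2, Cox7a1, Cox7a2l and Cox6b2, and the lowest, Cox4i2 in the mast gate, rests on 2 UMIs.

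Depth differed between gates, and in some of them the level of cycling genes did too. The median cell had 6232 to 6621 UMIs in the stem gate, 10666 to 11957 in the MkE, 13483 to 16652 in the myeloid, 7268 to 8785 in the lymphoid, 5620 to 8285 in the mast and 9933 to 15503 in the monocyte gate. A list of 10 cycling genes summed to 1247 to 1579 CPM in stem, 1988 to 2276 in MkE, 1315 to 1572 in myeloid, 1754 to 2027 in lymphoid, 1229.9 to 1879.6 in mast and 1893 to 2315 in monocyte cells. The MkE, lymphoid and monocyte ranges lay above that of the stem gate, and the myeloid and mast ranges overlapped it; the depth of mast cells also spanned the stem range. Among cells of 6000 to 12000 UMIs, a restriction chosen after the data were seen, the nuclear median was 0.31 in MkE, 0.55 in myeloid, 0.17 in lymphoid, 0.27 in mast and 0.43 in monocyte cells. Of 61 nuclear members tested there, 53, 58, 24, 31 and 51 were higher, where 22.9%, 21.1%, 15.1%, 12.0% and 19.5% of 10689 genes were; the thinnest of these sums came from 21 cells. Cells with no UMI of a cycling gene were few in some sums. They made up 1.91% to 5.53% of myeloid and 1.94% to 27.3% of monocyte cells per library. In Yoda1 2 they were 2.33% of 86 myeloid cells. Among cells with no UMI of a cycling gene 61 nuclear members were tested. The medians were 0.30, 0.45, 0.08, 0.11 and 0.41, and 37, 32, 4, 7 and 31 members were higher, where 20.4%, 11.4%, 9.75%, 11.5% and 12.1% of 6781 genes were. The lymphoid (6.56%) and mast (11.5%) shares of members were thus no larger than those of all genes in these cells. In the MkE and myeloid gates the nuclear medians were thus smaller by more than 1.5 times under both restrictions, and stayed above 0 in all 5 gates. The mitochondrial median in the MkE gate was -0.17 and -0.25 under them, and in the myeloid gate 0.38 and 0.25.

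Markers of other cells also differed between gates. A neutrophil list of 7 genes summed to 664 to 2781 CPM in the myeloid gate and 11.6 to 43.5 in the stem gate, and an erythroid list of 7 to 68.4 to 834 CPM in the MkE gate and 29.5 to 58.8 in the stem gate; and a T and NK cell list of 7 summed to 907 to 1316 CPM in the myeloid gate and 210.4 to 312 in the stem gate. No gene of these lists was at 0 over all cells. Kit and Ly6a, the sort genes, summed to 361 to 822 CPM in the stem, 121 to 155 in the MkE and 87.3 to 165 in the myeloid gate. The part of these markers in the gate differences was not tested.

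Among complex I genes, 36 of 37 nuclear members were higher in the MkE gate, 37 in the myeloid, 24 in the lymphoid, 21 in the mast and 37 in the monocyte gate, and none was lower by edgeR, at an unadjusted p under 0.05 or by DESeq2. Ndufs1, an iron-sulfur subunit of the electron-input arm, stood at 39.5, 37.3, 38.6 and 37.7 CPM in the stem gate and 64.7, 60.5, 61.1 and 63.3 in the MkE gate (log2 fold change 0.71 ± 0.06 SE, edgeR adjusted p = 2.69e-12). Ndufv1, which binds NADH, rose from 93.7 ± 7.64 CPM to 167 ± 9.53 in MkE and 176 ± 23.2 in myeloid cells (log2 0.84 and 0.89). For both genes the groups of 4 libraries did not overlap. Ndufa1, an X-linked accessory subunit needed for assembly, was at 108, 89.9, 121 and 91.5 CPM in the stem gate and 258, 249, 285 and 256 in the myeloid gate, a log2 fold change of 1.36 ± 0.07 without overlap. It was also the nuclear member with the largest rise in the mast gate, to 208 ± 32.5 CPM, followed by Cox6a1 (0.86), Uqcrq (0.73) and Ndufs5 (0.65), an accessory subunit.

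Ndufa4 was the 1 gene named for complex I that was not higher in the MkE gate. Although its symbol is that of complex I, the protein is now counted as a subunit of complex IV. It was at 853, 924, 930.5 and 934 CPM in the stem gate, 899.7, 933, 966 and 1015 in the MkE gate and 1341, 1662, 1672 and 1698 in the myeloid gate. Stem and MkE values overlapped (log2 0.07 ± 0.06, edgeR adjusted p = 0.317), while all myeloid values lay above both. Between the myeloid and MkE gates it had the largest log2 difference of the nuclear members at 10 CPM or more that rose (0.74 ± 0.06, edgeR adjusted p = 1.87e-13), ahead of Cox5a (0.69), the complex III subunit Uqcrb (0.66) and the accessory subunit Ndufb7 (0.65).

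The 4 subunits of complex II, which also catalyses a step of the citric acid cycle, were each higher in the MkE, myeloid and monocyte gates, 2 were higher in the lymphoid gate and 1 in the mast gate. The shares of all genes higher were 32%, 31.5%, 28.4%, 18.6% and 15.1% in that order. Sdha, the flavoprotein, was at 117 ± 5.86 CPM in stem, 155 ± 4.97 in MkE and 147 ± 6.04 in myeloid cells. Sdhb, the iron-sulfur subunit (chromosome 4, 140961203 to 140979193, plus strand), was at 114, 115, 129.6 and 106 CPM in the stem gate and 168, 183, 216 and 165 in the lymphoid gate. At 0.65 ± 0.07 it had the largest lymphoid rise among nuclear members at 10 CPM or more, and in the monocyte gate it reached 224 ± 29.1 CPM (log2 0.96). Of the membrane anchors, Sdhc rose by 0.61 in MkE and 0.39 in myeloid cells, and Sdhd by 0.92 and 0.95. Among cells without cycling-gene UMIs Sdha was not called in the MkE, myeloid or monocyte gate (0.10, 0.22 and 0.28). Sdhc and Sdhd were then not called in the myeloid (0.19 and 0.57) or monocyte gate (0.46 and 0.58). The monocyte call of Sdha was also lost at 6000 to 12000 UMIs (0.14). Complex II was the nuclear complex with no member higher in the myeloid than in the MkE gate: Sdhb (-0.18 ± 0.07, edgeR adjusted p = 0.0261) and Sdhc (-0.22 ± 0.07, 0.00768) were lower there. Among cells of 6000 to 12000 UMIs these 2 differences turned to 0.01 and 0.16. Without control 1 neither was called (-0.11 and -0.17), nor was Sdhb without control 2 (-0.20).

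All 8 nuclear members of complex III were higher in the MkE and in the myeloid gate. Uqcrq, a small subunit bound to cytochrome b (chromosome 11, 53427922 to 53430831, minus strand), was at 257, 202, 268 and 205 CPM in the stem and 654, 583, 765 and 595 in the myeloid gate, a log2 fold change of 1.48 ± 0.06 with the libraries well apart. Uqcr11, another small subunit, rose from 319 ± 58.0 to 623 ± 105 CPM in the MkE gate (log2 0.97). The core protein Uqcrc1 went from 137 to 258 CPM in MkE and 283 in myeloid cells, and Uqcrfs1, the Rieske iron-sulfur protein, from 136 to 198 and 226. Uqcrh, the hinge protein, had the smallest rise of the complex in both gates (0.14 and 0.23); it was named after its values were seen.

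Every nuclear member called lower than in the stem gate belonged to complex IV. Of 16 tested members 13 were higher and 3 lower in the MkE gate, 12 and 2 in the myeloid, 10 and 2 in the lymphoid, 11 and 1 in the mast, and 13 and 2 in the monocyte gate; the lower ones were Cox4i2, Cox6b2, Cox7a1 and Cox7a2l. Cox5a, a subunit of the matrix side (chromosome 9, 57521274 to 57532426, plus strand), was at 473, 429, 473 and 418 CPM in the stem gate, 782, 754, 793 and 785 in the MkE gate and 1174, 1269, 1280.4 and 1289 in the myeloid gate. The 3 gates did not overlap, and the myeloid log2 fold change was 1.48 ± 0.06 (edgeR adjusted p = 1.55e-21). Cox6a1, the widely expressed form of subunit VIa (chromosome 5, 115345642 to 115348981, minus strand), was at 84.1, 123, 174 and 113 CPM in the stem gate and 300.4, 268, 345 and 276 in the MkE gate (1.31 ± 0.09). Its level varied between libraries within each gate, with control 1 lowest and Yoda1 1 highest in the stem, myeloid, lymphoid, mast and monocyte gates. Cox7b, an X-linked small subunit, rose from 245 ± 79.0 CPM in stem cells to 459 ± 60.0 in MkE, 581 ± 142 in myeloid and 495 ± 117 in monocyte cells. Cox8a, the smallest subunit, rose from 843 ± 27.2 to 1547 ± 55.6 CPM in the myeloid gate (0.88).

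Paired forms of complex IV subunits moved apart in some gates and together in others. Cox6b1, the widely expressed form of subunit VIb, was at 422, 373, 429.8 and 375 CPM in the stem gate and was higher in all 5 lineage gates, from 0.19 in the lymphoid to 0.99 in the myeloid gate. Cox6b2, the form known from testis (chromosome 7, 4751792 to 4753094, minus strand), was at 72.4, 64.3, 75.0 and 51.0 CPM in the stem gate and 225, 153, 197 and 147 in the MkE gate. Every MkE library lay above every stem library, with a log2 fold change of 1.46 ± 0.08 (edgeR adjusted p = 1.93e-17). Cox6b2 was higher in the mast gate too (0.51), but lower in the lymphoid gate at 40.8, 30.8, 41.2 and 32.6 CPM (-0.84 ± 0.09) and in the monocyte gate (-0.40 ± 0.10). In the myeloid gate it did not pass the test (0.15 ± 0.09, edgeR adjusted p = 0.136), and it was lower there than in the MkE gate (-1.31 ± 0.09). The monocyte change turned to 0.23 among cells without cycling-gene UMIs and was not called without Yoda1 1 (-0.28).

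Cox7a2, the widely expressed form of subunit VIIa, rose from 356, 278, 370.4 and 318 CPM in the stem gate to 748, 742, 831 and 799 in the myeloid gate (edgeR adjusted p = 2.8e-19), without overlap. Cox7a2l, a relative of it that is known for joining complexes III and IV in supercomplexes (chromosome 17, 83501918 to 83517330, minus strand), went the other way: 389, 419.9, 423 and 437 CPM in the stem, 338, 346, 348 and 305 in the MkE and 304, 318, 299 and 301 in the myeloid gate. The stem range lay above both. Its log2 fold changes were -0.32 ± 0.06 in MkE, -0.45 ± 0.07 in myeloid and -0.17 ± 0.07 in monocyte cells, the last with an edgeR adjusted p of 0.0289. The monocyte call was lost without control 1, control 2 or Yoda1 1 (-0.15, -0.13 and -0.06), and in both restricted sets of cells. In lymphoid cells it stood at 457 ± 24.8 CPM (0.13, adjusted p = 0.116). It was the nuclear member at 10 CPM or more that was lower in both the MkE and myeloid gates, and its mRNA shares a stretch with a processed pseudogene that held 63 UMIs.

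Cox4i1, the widely expressed form of subunit IV, rose from 803 ± 27.0 CPM in stem to 1101 ± 38.8 in MkE and 1422 ± 95.2 in myeloid cells. Cox4i2, its oxygen-responsive counterpart, was at 4.27, 3.12, 5.48 and 4.53 CPM in the stem gate, 0.746, 1.07, 1.23 and 1.51 in the MkE gate and 7.92, 8.50, 7.12 and 6.16 in the monocyte gate. It was lower in MkE (-2.04 ± 0.24), myeloid (-0.94 ± 0.27) and lymphoid cells (-1.41 ± 0.25) and higher in monocyte cells (0.81 ± 0.23), the last not called without control 2 (0.63). In the mast gate it had 2 UMIs in Yoda1 1 and 0 in each of the other libraries, which allows up to 3.30, 2.31 and 6.27 CPM there (3 counts, counting error only), so no fold is given. Cox7a1, the form of subunit VIIa known from heart and skeletal muscle, had a mean of 1.15 CPM in the stem and 2.53 in the lymphoid gate (1.13 ± 0.28, edgeR adjusted p = 0.00119). It passed the test as lower in MkE cells (-0.71 ± 0.31, edgeR adjusted p = 0.0434), a call that was lost with DESeq2 (adjusted p = 0.0666), with no filter on low counts, and without any 1 of the 4 libraries (-0.85 to -0.46).

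**Figure D3:**
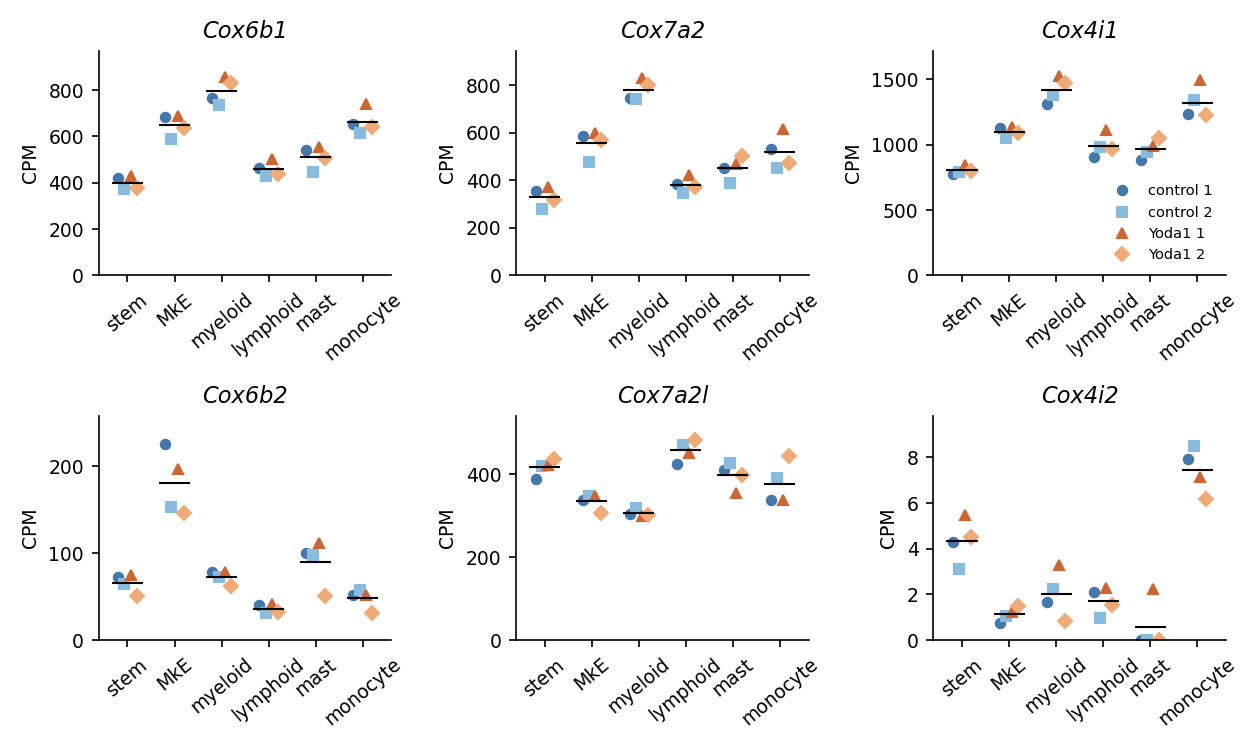
Levels (CPM, y axes from 0, scaled per gene) of 3 widely expressed complex IV subunits (top) and of their paired or related forms (bottom) in 6 marker gates; each symbol is 1 library and each bar the mean of 4. The upper 3 genes are higher in every lineage gate than in the stem gate, whereas Cox6b2 peaks in the MkE gate at a mean of 180.4 CPM, Cox7a2l is lowest in the myeloid gate at 306, and Cox4i2 is highest in the monocyte gate at 7.43.

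RefSeq (GRCm38.p6) listed a promoter for 52 of the 66 nuclear members. Within 300 bases around the start, the NRF1 core GCGCATGC stood in 13.5% of these and in 3.05% of the 27025 genes listed, the ETS (GABP) core CCGGAAG in 21.2% and 9.93%, the YY1 core AAGATGG in 15.4% and 7.28%, and the GC box GGGCGG in 40.4% and 38.2%, each searched on both strands. NRF1 and GABP are transcription factors known for acting on respiratory chain genes. Promoters of Cox6a1, which rose in each lineage gate, of Cox6b1 and Cox6b2, and of Cox7a2 and Cox7a2l are shown as the 250 bases before the start. They run 5′ to 3′, with matches to any of these motifs in capitals (the NRF1 matches of Cox6a1 overlap). The RefSeq start of Cox7a2l lies inside the longer gene model given above.
Cox6a1 (chr5:115348959-115349208, minus strand): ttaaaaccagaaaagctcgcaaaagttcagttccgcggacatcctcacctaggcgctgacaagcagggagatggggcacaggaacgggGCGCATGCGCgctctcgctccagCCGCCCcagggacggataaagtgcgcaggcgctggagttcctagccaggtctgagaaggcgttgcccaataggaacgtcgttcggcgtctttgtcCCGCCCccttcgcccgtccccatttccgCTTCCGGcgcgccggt
Cox6b1 (chr7:30626115-30626364, minus strand): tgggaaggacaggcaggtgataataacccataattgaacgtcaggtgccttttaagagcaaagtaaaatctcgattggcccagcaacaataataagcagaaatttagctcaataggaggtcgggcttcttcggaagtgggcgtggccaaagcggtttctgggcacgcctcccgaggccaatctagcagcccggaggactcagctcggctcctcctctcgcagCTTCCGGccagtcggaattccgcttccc
Cox6b2 (chr7:4753095-4753344, minus strand): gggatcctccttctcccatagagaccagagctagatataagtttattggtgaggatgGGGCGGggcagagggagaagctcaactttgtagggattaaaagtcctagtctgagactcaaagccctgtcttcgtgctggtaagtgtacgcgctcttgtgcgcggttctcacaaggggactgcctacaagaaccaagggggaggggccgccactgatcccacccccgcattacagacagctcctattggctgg
Cox7a2 (chr9:79759854-79760103, minus strand): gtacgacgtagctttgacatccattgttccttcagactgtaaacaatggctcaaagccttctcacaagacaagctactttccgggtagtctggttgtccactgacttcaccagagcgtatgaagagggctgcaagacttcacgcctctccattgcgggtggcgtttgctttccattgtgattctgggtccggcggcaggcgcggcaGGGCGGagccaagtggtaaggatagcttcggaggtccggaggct
Cox7a2l (chr17:83514334-83514583, minus strand): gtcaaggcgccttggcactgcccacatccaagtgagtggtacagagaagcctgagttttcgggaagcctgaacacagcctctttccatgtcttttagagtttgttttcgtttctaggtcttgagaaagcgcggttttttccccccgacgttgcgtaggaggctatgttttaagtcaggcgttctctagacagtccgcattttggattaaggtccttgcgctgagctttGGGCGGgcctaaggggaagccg
Cox6a1 held NRF1, ETS and GC box matches, Cox6b1 an ETS match, and Cox6b2, Cox7a2 and Cox7a2l a GC box. Cox7a2 and Cox7a2l carried the same kind of match although they moved in opposite directions in the MkE and myeloid gates. A match describes letters in this window and is no evidence of binding.

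The mitochondrially encoded members were not moved as a block. The mitochondrial genome is transcribed as long RNAs that are cut into the single messages, and all members but mt-Nd6 lie on the same strand. In the MkE gate the complex IV genes mt-Co1 (-0.41 ± 0.06), mt-Co2 (-0.42 ± 0.15) and mt-Co3 (-0.29 ± 0.08), the complex V genes mt-Atp6 (-0.32 ± 0.07) and mt-Atp8 (-0.18 ± 0.07), and mt-Nd5 (-0.28 ± 0.06) of complex I were lower than in the stem gate. mt-Co1, the catalytic subunit of complex IV (chromosome M, 5328 to 6872, plus strand), was at 871, 972, 988 and 962 CPM in the stem gate and 659, 772, 670.0 and 759 in the MkE gate, without overlap. mt-Nd1, a membrane subunit of complex I (chromosome M, 2751 to 3707, plus strand), was the exception. It was at 1796, 1535, 1711 and 1829.8 CPM in the stem, 2122, 2053, 1977 and 2275 in the MkE and 2679, 2453, 2218 and 2564 in the myeloid gate, and higher in both (0.30 ± 0.06 and 0.53 ± 0.06) as well as in the monocyte gate (0.32). mt-Nd2, mt-Nd3 (-0.01), mt-Nd4 (-0.05), mt-Nd4l (-0.17) and mt-Cytb (-0.02) did not pass in the MkE gate. The mt-Nd1 rise in MkE cells was 0.07 among cells without cycling-gene UMIs and 0.11 at 6000 to 12000 UMIs, not called in either. The call of mt-Atp8 was lost without any 1 library (-0.19 to -0.12), that of mt-Co2 without control 1, Yoda1 1 or Yoda1 2 (-0.40, -0.35 and -0.29), and that of mt-Co3 without control 2 or Yoda1 1 (-0.24 and -0.21). mt-Co1, mt-Nd5, mt-Nd6 and mt-Atp6 were called lower without each library in turn. At 6000 to 12000 UMIs, however, the calls of mt-Atp6 (-0.17), mt-Co2 (-0.19) and mt-Co3 (-0.06) were lost. Those of mt-Co3 (-0.14) and mt-Nd6 (-0.37) were lost among cells without cycling-gene UMIs. Over all cells mt-Co2 and mt-Co3 stood at 5.82 to 10.3 and 16.2 to 26.5 CPM, and both have a near-identical nuclear copy, described below.

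In the myeloid gate mt-Cytb, the mitochondrial subunit of complex III, was at 6203, 4892, 3804 and 4872 CPM against 3997, 3391, 3309.9 and 3782 in the stem gate (0.44 ± 0.06). It was higher in each of the 4 libraries, although Yoda1 1 in the myeloid gate lay within the stem range. mt-Nd2, mt-Nd3, mt-Nd4, mt-Nd4l and mt-Nd5 of complex I were higher as well, by 0.21 to 0.69, and so was mt-Atp8 (0.31), while mt-Co1 (-0.02), mt-Co2 (-0.11), mt-Co3 (-0.01) and mt-Atp6 (-0.16) did not pass. Without control 1 the calls of mt-Nd2 (0.13) and mt-Nd4l (0.47) were lost, and without control 2 that of mt-Nd4l (0.61). Among cells without cycling-gene UMIs mt-Cytb (0.35), mt-Nd1 (0.35), mt-Nd2 (0.15), mt-Nd4 (0.25), mt-Nd5 (0.10) and mt-Atp8 (0.39) were no longer called. At 6000 to 12000 UMIs the call of mt-Nd4l was lost (0.22). The limit of 10% on mitochondrial UMIs bears on this gate: it removed 19.5% to 30.0% of the myeloid barcodes and 0.343% to 1.46% of the stem barcodes. With every deposited barcode kept, 12 of the 13 were higher in the myeloid gate and none lower, with a median of 0.61. Of 14029 genes tested so, 4155 were higher and 5494 lower.

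mt-Nd6, a complex I subunit and the 1 member on the other strand (chromosome M, 13552 to 14070, minus strand), was lower in 4 lineage gates. It was at 19.9, 26.3, 24.7 and 27.1 CPM in the stem gate, 13.2, 20.9, 17.4 and 23.3 in the MkE and 16.9, 22.3, 14.1 and 16.3 in the myeloid gate. The log2 fold changes were -0.42 ± 0.09 in MkE, -0.41 ± 0.11 in myeloid, -0.32 ± 0.10 in lymphoid and -0.45 ± 0.12 in monocyte cells, and -0.16 ± 0.18 in mast cells, which did not pass. Among cells without cycling-gene UMIs none of the 4 calls held. The values were -0.37 in MkE, -0.25 in lymphoid and -0.46 in monocyte cells, and the myeloid value turned to 0.23. The myeloid call was also lost without Yoda1 1 (-0.23), at 6000 to 12000 UMIs (-0.46) and with every barcode kept (-0.09). The lymphoid call was lost without control 2 or Yoda1 1 (-0.25 and -0.26). The ranges of stem and MkE overlapped, with control 1 lowest in both.

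**Figure D4:**
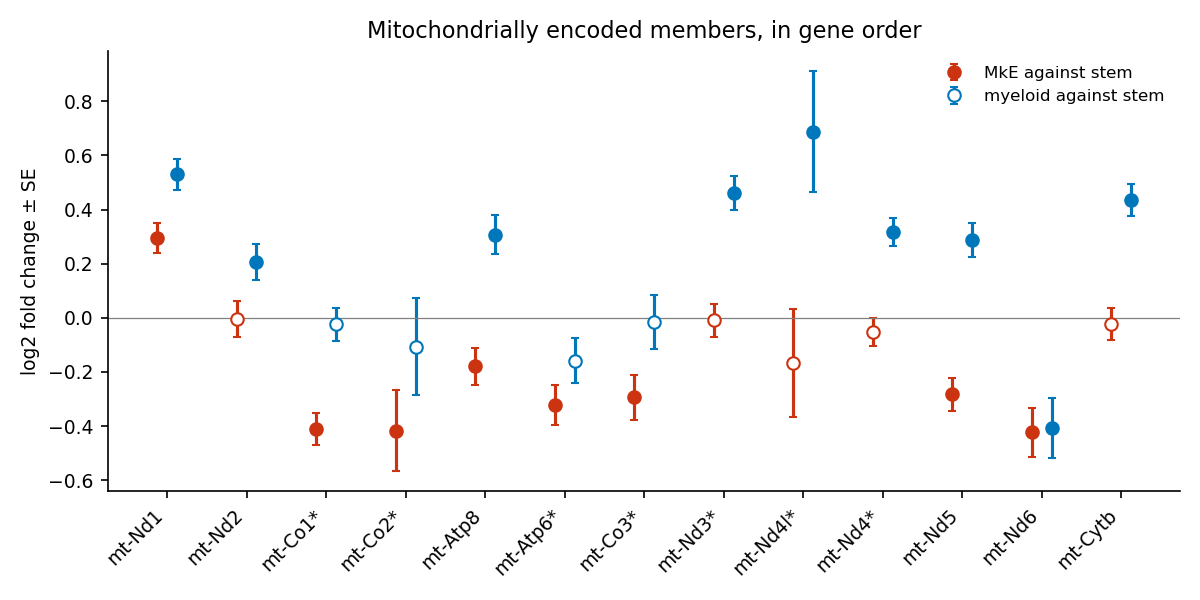
Log2 fold change ± SE (y axis) of the 13 mitochondrially encoded members against the stem gate, in the order of the genes (x axis), for the MkE (red) and myeloid (blue) gates; filled points passed the adjusted p of 0.05, and an asterisk marks a gene with a near-identical nuclear copy. In the MkE gate 7 genes lie below 0 and pass, with mt-Nd1 the 1 gene above, and in the myeloid gate mt-Nd6 is the 1 gene that passes below 0.

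Several members share sequence with other loci, so their counts are uncertain. Of the 13 mitochondrially encoded genes 7 (mt-Nd3, mt-Nd4, mt-Nd4l, mt-Co1, mt-Co2, mt-Co3 and mt-Atp6) have a copy on chromosome 1 of at least 98% identity over at least 100 bases, as do 14 of the 66 nuclear members elsewhere, among them Cox5b with Cox5b-ps and Cox7c with Cox7c-ps1. The chromosome 1 copies held 32 to 931 UMIs. The share was largest for mt-Co2, with 573 UMIs in the copy and 3161 in the gene. These UMIs do not measure the reads that match both places. The copies of mt-Nd3, mt-Nd4l, mt-Co2, mt-Co3 and mt-Atp6 span 99.0% to 99.9% of the gene. Over all cells mt-Co2 was at 6.61, 9.80, 5.82 and 10.3 CPM and mt-Co3 at 16.4, 25.5, 16.2 and 26.5. mt-Co1 was at 839, 920, 856 and 934. mt-Atp8 and mt-Atp6, and mt-Nd4l and mt-Nd4, overlap on the same strand, and mt-Nd5 and mt-Nd6 overlap end to end on opposite strands, so reads of these pairs may be shared. The effect of copies on single members was not tested.

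The ratio of mitochondrial to nuclear member UMIs needs no scaling between libraries. It was 0.724, 0.682, 0.606 and 0.752 in the stem gate, 0.443, 0.505, 0.387 and 0.502 in the MkE gate and 0.597, 0.481, 0.358 and 0.478 in the myeloid gate. Within each of the 4 libraries the stem gate had the highest ratio of the 6 gates. The means were 0.691 ± 0.0637 in stem, 0.459 ± 0.0561 in MkE, 0.478 ± 0.0974 in myeloid, 0.599 ± 0.0626 in lymphoid, 0.523 ± 0.0708 in mast and 0.514 ± 0.0972 in monocyte cells (SD, n = 4 libraries). Without the members that have near-identical copies the stem mean was 0.492 and the MkE mean 0.340. With every barcode kept, the means were 0.697 in stem, 0.467 in MkE and 0.672 in myeloid cells, and control 1 had a higher ratio in the myeloid gate (0.916) than in the stem gate (0.729).

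Other genes of the pathway are described by lists. Of 18 nuclear ATP synthase genes, 18 were higher in each of the MkE, myeloid and monocyte gates, 14 in the lymphoid and 16 in the mast gate, with none lower. The shares of all genes higher were 32%, 31.5%, 28.4%, 18.6% and 15.1% in that order of gates. Atp5g1, which encodes the c subunit of the rotor, was at 345, 321, 328 and 327 CPM in the stem and 883, 835, 859.7 and 815 in the MkE gate (1.36 ± 0.07). Cytochrome c itself, Cycs, was at 141, 136, 147 and 144 CPM in the stem, 310.2, 288, 319 and 329 in the MkE and 447, 515, 521 and 526 in the myeloid gate. Its 3 ranges did not overlap, and the log2 fold changes were 1.14 ± 0.07 and 1.82 ± 0.07. Of 14 citric acid cycle genes 13 were higher and 1 lower in MkE, and 13 higher in myeloid cells. The shares of all genes lower in these gates were 38.4% and 37.6%. For assembly factors, 13 of 18 of complex I were higher and 1 lower in MkE, 17 of 21 of complex IV were higher, and 6 of 10 of complexes II and III were higher and 1 lower. All 3 genes of a cytochrome c list (Cycs, Cyc1 and Hccs) and 7 of 8 supercomplex genes were higher in both the MkE and myeloid gates. Of the 3 only Cycs encodes cytochrome c. Cyc1 encodes a complex III subunit but is not a member, as its symbol lies outside the set. The gene lower among the complex II and III factors was Ttc19, a complex III assembly factor, at 39.2 CPM in stem and 27.8 in MkE cells (-0.50 ± 0.07).

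Genes that express the mitochondrial genome were higher in 14 of 20 cases in the MkE and 11 of 20 in the myeloid gate, with none lower. Among all genes 32% and 31.5% were higher there. Lrpprc, which stabilises mitochondrial mRNAs, rose from 22.9 to 46.0 CPM in MkE cells (1.01 ± 0.08), and its partner Slirp by 0.48 ± 0.06. Polrmt, the mitochondrial RNA polymerase, rose by 0.54 ± 0.10 and Tfam, which packages mitochondrial DNA, by 0.25 ± 0.07; Tfam did not pass in myeloid cells (edgeR adjusted p = 0.979). Of 11 regulators of mitochondrial biogenesis, 5 were higher and 3 lower in MkE, and 1 higher and 4 lower in myeloid cells. With 38.4% and 37.6% of all genes lower, neither count of lower regulators is above background. The myeloid count of higher regulators lies below its background. Sirt3, a mitochondrial deacetylase, fell from 202, 212, 200.5 and 205 CPM in the stem gate to 79.0, 83.8, 80.0 and 86.6 in the MkE gate (-1.32 ± 0.07). Ppargc1a, a coactivator known for driving biogenesis, was low in the stem gate at 2.59, 2.93, 1.60 and 3.06 CPM. It had 2 UMIs over the 4 MkE libraries and 0 in the myeloid gate, where 0 UMIs allow up to 0.356 to 2.22 CPM per library (3 counts). Nrf1 was at 0.27 ± 0.07 and Gabpa at 0.14 ± 0.08 in MkE cells, the first past and the second short of the threshold (edgeR adjusted p = 0.000822 and 0.0838). Esrra passed as higher in MkE (0.21 ± 0.08) and myeloid cells (0.43 ± 0.10), and Ppargc1b as higher in MkE cells (0.31 ± 0.12).

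Yoda1 was then compared with control over all LSK cells, with counts summed per library. No member passed: among 18182 genes, 0 had an adjusted p under 0.05 in edgeR's quasi-likelihood test, a background of 0%, with 306 genes and 0 members at an unadjusted p under 0.05, and DESeq2 called 5 genes and 0 members. Summed over nuclear members the libraries stood at 21691, 19188, 23101 and 16014 CPM. The 2 Yoda1 libraries lay on opposite sides of the controls: 49 of 66 nuclear members were highest in Yoda1 1 and 61 were lowest in Yoda1 2. The nuclear median log2 fold change was -0.08, with 54 of 66 below 0, against 0.01 over all genes. It was -0.35 without Yoda1 1, 0.16 without Yoda1 2, -0.000886 without control 1 and -0.17 without control 2. Without Yoda1 1, Cox6b2 was called as lower (log2 -0.96, edgeR adjusted p = 0.0203), with Yoda1 2 then the lone Yoda1 library, assumed to vary like the controls; that fit called 4.43% of all genes, so 1 member of 66 is no excess. Yoda1 2 also held the most stem-gate and the fewest MkE-gate cells, and the part of this in the Cox6b2 value was not tested.

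Of the nuclear members, Cox7a1 and Cox4i2 had both Yoda1 libraries above both controls, where 10.6% of all genes did, and 1, Cox6c2, lay below (10.2%). Cox7a1 was at 1.19, 0.913, 1.77 and 1.34 CPM (0.57 ± 0.38), Cox4i2 at 3.35, 2.90, 4.78 and 3.42 (0.39 ± 0.31), and Cox6c2, annotated as a processed pseudogene, at 0.604, 0.726, 0.337 and 0.483 (-0.70 ± 0.45). All 3 lay under 5 CPM and none passed the test. Among mitochondrially encoded members mt-Atp8 lay above both controls, at 83.1, 110.1, 112 and 111 CPM (0.21 ± 0.20), with Yoda1 1 only just above control 2. mt-Cytb was at 4550.2, 3740.0, 3367 and 3815 CPM and mt-Co1 at 839, 920.2, 856 and 934, with overlapping groups. The mitochondrial median was -0.03. The ratio of mitochondrial to nuclear member UMIs was 0.549, 0.539, 0.421 and 0.671, with Yoda1 1 lowest and Yoda1 2 highest; the group means were 0.544 and 0.546 (exact two-sided permutation test, p = 1, where the smallest p that 2 against 2 libraries allow is 0.33).

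Within gates no member passed, and the nuclear medians of the Yoda1 difference were above 0 in each gate. edgeR's quasi-likelihood test called 0 members in each of the 6 gates, against backgrounds of 0% of genes in the stem, MkE, mast and monocyte gates, 0.0342% in the myeloid and 0.00785% in the lymphoid gate; DESeq2 was not run within gates. At an unadjusted p under 0.05 there were 2 members in the stem gate, 1 in the MkE, 4 in the myeloid, 0 in the lymphoid, 1 in the mast and 0 in the monocyte gate. Of all genes, 277 of 13751, 291 of 14026, 202 of 11679, 354 of 12740, 189 of 8108 and 93 of 11137 were so, in that order of gates. Nuclear medians were 0.05 in the stem, 0.07 in the MkE, 0.16 in the myeloid, 0.12 in the lymphoid, 0.16 in the mast and 0.12 in the monocyte gate, where the median of all genes lay between -0.01 and 0.02. The stem and monocyte medians turned to -0.02 and -0.04 without Yoda1 1. The stem median was also -0.02 without control 2. The MkE median was 0.01 without control 2 and 0.03 without Yoda1 1, the lymphoid median 0.06 without Yoda1 1, the mast median 0.06 without Yoda1 1, and the myeloid median 0.10 without control 1.

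In the myeloid gate 33 of 64 nuclear members had both Yoda1 libraries above both controls and 1 had them below, where 13.1% and 14% of all genes did. The counts were 7 and 1 of 65 in the stem gate (12.8% and 13.5%), 17 and 1 of 66 in the MkE gate (13.3% and 14%), 19 and 0 of 65 in the lymphoid gate (15.6% and 15.4%), 26 and 2 of 61 in the mast gate (14.8% and 15%), and 17 and 3 of 64 in the monocyte gate (11.8% and 12.4%). Members of 1 library share its cells, depth and scaling, so these counts are no test. The neutrophil list in that gate differed between libraries in the same comparison, at 1305, 873, 664 and 2781 CPM, and Yoda1 2 supplied 86 cells; the part of either in these counts was not tested.

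Cox6a1 and Cox7b, both of complex IV, were singled out after their values were seen. Among myeloid cells, scaled on their own, Cox6a1 was at 187, 253, 317 and 291 CPM (0.47 ± 0.17) and Cox7b at 329, 517, 619.8 and 547 (0.47 ± 0.19). In the mast gate Cox7b was at 259, 306, 423 and 407 CPM (0.55 ± 0.19). Both controls lay below both Yoda1 libraries in these cases, and control 1 lay below control 2. Calls appeared when 1 library was left out: without Yoda1 2, Cox7b (0.71) and Cox6a1 (0.73) in the stem gate and Cox6a1 (0.61) in the monocyte gate, and without control 2, Cox7b (0.83) in the myeloid gate (edgeR adjusted p = 0.0128, 0.00588, 0.0339 and 0.0361 in turn). The same fits called 1.3% of all genes in the stem, 2.57% in the monocyte and 0.201% in the myeloid gate. In the stem gate, with all libraries, Cox7b was at 167, 301, 383 and 263 CPM and the groups overlapped.

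Mitochondrially encoded members showed no common direction under Yoda1. Their medians were 0.07 in the stem, 0.03 in the MkE, -0.19 in the myeloid, 0.13 in the lymphoid, -0.07 in the mast (11 of 13 tested) and 0.02 in the monocyte gate. Yoda1 1 was low in the myeloid gate, with a median deviation of -0.43 from the control mean, and Yoda1 2 was at 0.07; without Yoda1 1 the median was 0.06 and without Yoda1 2 -0.47. mt-Atp8 in the stem gate was at 88.4, 109.9, 124 and 128 CPM (0.34 ± 0.13), with both Yoda1 libraries above both controls. The test of whether the Yoda1 difference varied over gates called 0 of 14463 genes (0%) and 0 of 78 members (edgeR's quasi-likelihood F test; 239 genes and 0 members at an unadjusted p under 0.05; DESeq2 was not run for it).

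**Figure D5:**
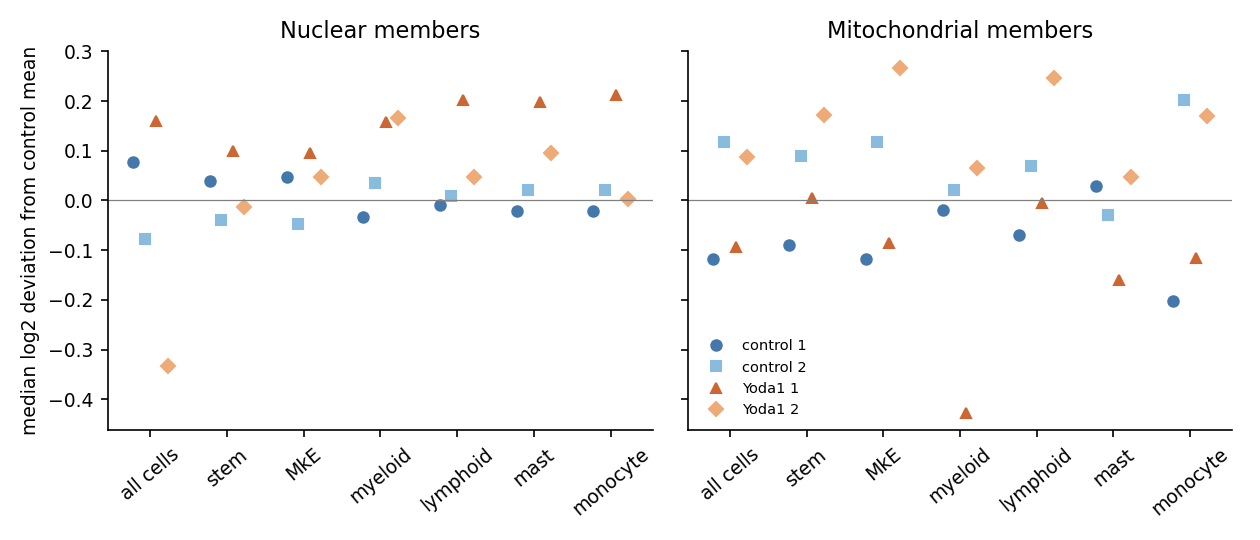
Median log2 deviation from the control mean (y axis) of nuclear (left) and mitochondrially encoded (right) members, for all cells and each gate (x axis); each point is 1 library, and the 2 controls mirror each other around 0 by construction. Over all cells Yoda1 1 lies at 0.16 and Yoda1 2 at -0.33 for nuclear members, while within gates the Yoda1 2 points lie between -0.01 and 0.17.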

How the data were processed

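The authors deposited 1 matrix of raw UMI counts for each library, written by Cell Ranger 7.1.0 per the file headers. The submitters' processing notes also name Seurat 4.3.0 and the mouse build GRCm38. Both a 10x Genomics and a Singleron workflow appear in the labels, so the platform is uncertain; the aligner settings are not given in the sources used here.

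A barcode was kept when it had 500 or more genes, 1000 or more UMIs and no more than 10% mitochondrial UMIs. No doublet caller was run; cells passing several gates were left out. Counts were summed per library, or per library and gate (at least 50 cells), and tested over all genes left by edgeR's filter on low counts with edgeR 4.0.16 (quasi-likelihood test, TMM scaling, Benjamini-Hochberg adjustment, threshold 0.05) in R 4.3.3. Library was a block between gates. The minimum of 50 cells was not applied to the restricted sets of cells. Python 3.11.15, pandas 2.3.3 and scipy 1.17.1 handled tables, BLAST 2.17.0 found near-identical copies, and positions came from GENCODE (GRCm38). The fits were first tested on simulated data. Alternatives were DESeq2 1.42.0, RLE scaling, no filter on low counts, other cell filters and gates, cells without cycling-gene UMIs, mitochondrial UMIs left out of the totals, a replicate block and each library left out. The contrast of the myeloid with the MkE gate and the range of 6000 to 12000 UMIs were chosen after seeing the data.

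The members and gene lists were chosen with earlier results of these data known. The members named were all mitochondrially encoded ones, all Sdh genes, paired complex IV subunits and their relatives, 5 core subunits, and up to 4 nuclear members per direction and gate with the largest significant log2 fold change at 10 CPM or more; over all cells, those with the smallest p among groups not overlapping. Other genes were up to 3 per list and a set of 10 regulators and carriers. Replicate numbers were not shown to pair the libraries: the differences of the same-numbered pairs correlated at r = 0.510 across 18182 genes, and the labels name no shared source.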

Additional observations from a re-analysis of the deposited data

How the results depend on the processing

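Of 366 counts of members recomputed under the alternatives, 306 stayed within 1.5 times of the reported count and 60 did not. Of 260 median log2 fold changes, 213 stayed within 1 SD between libraries of the reported median and 47 did not. Of 1767 values of single members, 1609 kept their direction and their side of the threshold. Nuclear members higher than in the stem gate were fewest among cells without cycling-gene UMIs: 37 in the MkE, 32 in the myeloid, 4 in the lymphoid, 7 in the mast and 31 in the monocyte gate, where fewer genes (6781) and cells were tested and 20.4%, 11.4%, 9.75%, 11.5% and 12.1% of all genes were higher; the lymphoid and mast counts, of 61 tested, are not above these shares. Among cells of 6000 to 12000 UMIs 24 of 61 were higher in the lymphoid gate (15.1% of all genes).

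Counts of mitochondrially encoded members moved as follows. In the MkE gate 0 were higher and 4 lower among cells without cycling-gene UMIs and among cells of 6000 to 12000 UMIs, and leaving out a library gave 4 to 5 lower. Of all genes 22.7% and 24.5% were lower in these sets of cells, and 32.3% to 35.4% with a library left out. In the myeloid gate 1 was higher without cycling-gene UMIs, where 11.4% of all genes were. There 2 were lower with DESeq2, RLE scaling, no filter on low counts or the stricter cell filter, and 0 with every barcode, without cycling-gene UMIs or at 6000 to 12000 UMIs (0 to 1 when a library was left out). In the lymphoid gate 0 were lower without cycling-gene UMIs (0 to 1 when a library was left out). In the mast gate 5 were lower with no filter on low counts, 2 with stricter gates and 1 at 6000 to 12000 UMIs (0 to 2 when a library was left out). The fits called 2424 of 28716, 2679 of 14022 and 1059 of 10689 genes lower in turn. In the monocyte gate 1 was higher with RLE scaling, no filter, the stricter cell filter or at 6000 to 12000 UMIs, 4 with every barcode, 8 with stricter gates and 0 without cycling-gene UMIs (1 to 5 when a library was left out), and 0 were lower without cycling-gene UMIs. With every barcode 3850 of 14029 genes were higher in the monocyte gate, and with stricter gates 4419 of 14022. In the contrast of the myeloid with the MkE gate 4 were higher without cycling-gene UMIs, where 7.85% of all genes were.

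Directions turned among cells without cycling-gene UMIs for mt-Nd6 in the myeloid gate (0.23), Ndufv1 in the mast gate (-0.19), Cox6b2 (0.23) and mt-Nd5 (-0.19) in the monocyte gate, and, between the myeloid and MkE gates, Sdhb (0.23) and Uqcrfs1 (-0.0585). At 6000 to 12000 UMIs Sdhb (0.00865) and Sdhc (0.16) turned in that contrast. The sums without cycling-gene UMIs were thin in places: in Yoda1 2 they held 2.33% of 86 myeloid cells. The cause of these turns was not tested.

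For Yoda1 against control, leaving out a library gave 0 to 1 members called over all cells, 0 to 2 in the stem, 0 to 1 in the myeloid and 0 to 1 in the monocyte gate; the fits with a member called had 4.43%, 1.3%, 0.201% and 2.57% of all genes called. The nuclear median ranged from -0.35 to 0.16 over all cells, -0.0197 to 0.10 in the stem, 0.00867 to 0.11 in the MkE, 0.10 to 0.18 in the myeloid, 0.0649 to 0.20 in the mast and -0.0366 to 0.21 in the monocyte gate. With the replicate number as a block 0 members were called over all cells and in each gate, and the nuclear medians were -0.10 over all cells, 0.05 in the stem, 0.08 in the MkE, 0.16 in the myeloid, 0.13 in the lymphoid, 0.16 in the mast and 0.11 in the monocyte gate. For the gate comparisons and the interaction no paired analysis was possible because library was already a block. The Yoda1 minus control difference in the ratio of mitochondrial to nuclear UMIs was 0.00193, and -0.0263 with every barcode (-0.123 to 0.127 when a library was left out). Each group had 2 libraries, and Yoda1 2 held 86 myeloid and 66 monocyte cells.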
